A study of Mus musculus with 2 samples.

Results

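The cell cycle phase genes are a fixed list of 42 genes among the 32285 genes that both count tables hold. The list has 20 genes of S phase, 18 genes of G2 and mitosis (G2/M) and 4 further genes, Cks1b, Cks2, Hmgb2 and Stmn1. Members were chosen by symbol, and each of the 42 symbols was found once. They were measured by droplet single-cell RNA sequencing in thymic epithelial cells of mice, in 1 library labelled Foxp1 KO and described as Cre+, and in 1 labelled Foxp1 WT and described as Cre-. Foxp1 encodes a forkhead transcription factor. Per the labels' protocols, thymi were broken up mechanically and with liberase and DNAse, enriched over Percoll, and sorted for live EPCAM+ cells. Titles and library names separate the groups, since both samples carry KO as their genotype entry. The Cre driver, the deleted part of Foxp1, the number of animals in each library, and their age and sex are not stated in the labels or file headers. With 1 library per group there was no test between groups. The intervals given with each value cover counting error only, at 95% confidence.

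A cell that divides first licenses its origins, when Cdc6 and Cdt1 load the Mcm helicase, then copies its DNA with the help of Pcna and of enzymes that make nucleotides. In G2 it builds up cyclin B with Cdk1, and in mitosis the spindle kinases and motors act before Cdc20 and Ube2c mark cyclins for destruction. In the thymic medulla, epithelial cells that divide lie mainly at an intermediate stage, close to cells that express Aire, the regulator that turns on tissue-restricted genes for the deletion of self-reactive T cells.

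S-phase genes are known targets of E2F factors, and G2/M genes of the DREAM and B-Myb complexes, which bind a short element called CHR, often near CCAAT boxes bound by NF-Y. Promoters were therefore set beside each other, because the 2 lists separated in these cells as described further on. The bases from 180 before to 1 before the start of 7 members are given here, from RefSeq, build GRCm38.p6, on the gene's own strand. Starts are those of the RefSeq entries and can differ from the gene positions of GENCODE M21. By those positions (chr11:98907801-98923940) the Cdc6 stretch lies inside the gene. Capitals mark the E2F letters TTTCGCGC, TTTGGCGC, TTTCCCGC and TTTGCCGC, the CHR letters TTTGAA and the CCAAT letters, on either strand. E2F words of opposite strands overlap in Mcm5 and Mcm6, where their capitals run together.
Mcm5 (S phase, chr8:75109329-75109508, + strand): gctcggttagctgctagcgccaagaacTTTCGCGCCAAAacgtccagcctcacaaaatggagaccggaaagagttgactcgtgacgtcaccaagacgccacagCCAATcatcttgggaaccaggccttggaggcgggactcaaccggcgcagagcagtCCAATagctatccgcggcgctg
Mcm6 (S phase, chr1:128359706-128359885, - strand): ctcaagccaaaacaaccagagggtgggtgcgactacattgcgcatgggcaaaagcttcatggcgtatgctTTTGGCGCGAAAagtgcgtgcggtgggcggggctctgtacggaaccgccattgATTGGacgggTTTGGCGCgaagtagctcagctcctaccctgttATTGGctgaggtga
Cdc6 (S phase, chr11:98907971-98908150, + strand): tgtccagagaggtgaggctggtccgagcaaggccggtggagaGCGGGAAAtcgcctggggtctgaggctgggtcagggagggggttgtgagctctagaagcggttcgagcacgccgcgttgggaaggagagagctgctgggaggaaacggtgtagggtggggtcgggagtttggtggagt
Cdc20 (G2/M, chr4:118437344-118437523, - strand): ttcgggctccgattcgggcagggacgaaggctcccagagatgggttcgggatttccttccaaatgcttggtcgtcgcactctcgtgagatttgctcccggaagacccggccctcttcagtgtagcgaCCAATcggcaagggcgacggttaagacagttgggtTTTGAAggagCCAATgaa
Ube2c (G2/M, chr2:164769749-164769928, + strand): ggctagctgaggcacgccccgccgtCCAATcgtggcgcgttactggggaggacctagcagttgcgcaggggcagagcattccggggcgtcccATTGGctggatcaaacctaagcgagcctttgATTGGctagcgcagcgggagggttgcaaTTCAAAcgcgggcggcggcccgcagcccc
Cdk1 (G2/M, chr10:69352913-69353092, - strand): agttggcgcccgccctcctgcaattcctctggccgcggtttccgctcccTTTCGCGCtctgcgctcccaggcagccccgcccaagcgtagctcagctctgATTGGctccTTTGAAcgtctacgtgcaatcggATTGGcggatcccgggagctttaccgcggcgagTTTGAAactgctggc
Ccnb1 (G2/M, chr13:100786487-100786666, - strand): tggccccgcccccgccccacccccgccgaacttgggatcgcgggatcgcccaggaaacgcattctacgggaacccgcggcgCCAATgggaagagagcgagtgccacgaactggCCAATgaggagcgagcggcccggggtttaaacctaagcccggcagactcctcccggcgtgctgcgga

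Of the 42 members, 35 were matched to a RefSeq promoter, counted over 250 bases before to 50 after the start. E2F letters were found for 8 of 17 matched S-phase genes (Cdc6, Cdt1, Mcm3, Mcm5, Mcm6, Mcm7, Pclaf and Uhrf1) and for 1 of 15 matched G2/M genes, Cdk1. Of all 32851 promoters in the table, 2.26% held them. CHR letters were found for 11 of 15 G2/M genes and 2 of 17 S-phase genes, Fen1 and Mcm2, against 17.9% of all promoters. CCAAT letters were found for 13 of 15 G2/M genes and 10 of 17 S-phase genes, against 37.4% of all. CHR and CCAAT letters stood together for 10 of 15 G2/M genes and 1 of 17 S-phase genes, against 6.95% of all promoters. Of the S-phase genes 3 have 2 promoter entries and were counted where either held the letters, while the shares over all are per entry. The entries with the E2F letters of Mcm7 and Uhrf1 and the CHR letters of Kif2c also lie inside the gene by the GENCODE M21 positions. The Ccnb1 promoter had 2 CCAAT words in the stretch shown and no CHR letters in the window searched. A match of letters is a description of the sequence and shows no binding.

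The 2 libraries held 4277 barcodes with 25233944 unique molecular identifiers (UMIs, counted RNA molecules) labelled KO, and 4957 barcodes with 33120715 UMIs labelled WT. Kept were cells that had 500 genes and 1000 UMIs or more, with no more than 10% of UMIs from mitochondria, and those with at least 1 Epcam UMI are called Epcam-positive: 2701 cells labelled KO and 3193 labelled WT, with medians of 6738 and 8021 UMIs. None of the 5 barcodes that the libraries share belonged to an Epcam-positive cell in both. Keratins of epithelial cells were frequent: 85.9% and 90.5% of Epcam-positive cells held Krt8, and 90.5% and 91.0% held Krt18. Foxp1 itself went against the labels. Its level was 384 CPM (UMIs scaled to a common total per library; interval 376 to 392) in Epcam-positive cells labelled KO and 244 CPM (238 to 250) in those labelled WT. Whether the counted reads lie in the deleted part is not known, so this does not check the labels, and the libraries are named by label throughout. UMIs of markers of other cell types were common: 42.2% of Epcam-positive cells labelled KO and 43.9% labelled WT held at least 2 UMIs of thymocyte, endothelial, fibroblast, myeloid, B or red cell markers, of which Lyz2 gave the most.

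To place cells in the cycle, each cell was thinned at random to 2000 UMIs, which left out 219 and 189 shallower cells. A cell with at least 3 UMIs of the S-phase list is called S-range, one with at least 3 of the G2/M list G2/M-range, and one with both S-and-G2/M-range. These are ranges of a score and not cell types. Of 2482 cells labelled KO, 173 lay in any of these ranges (6.97%, Clopper-Pearson interval 6.0 to 8.04%), and of 3004 cells labelled WT, 175 (5.83%, 5.01 to 6.72%). The log2 ratio of the shares was 0.26, with an interval from -0.05 to 0.57 that includes 0. The S range held 88 cells (3.55%) labelled KO and 86 (2.86%) labelled WT, the G2/M range 59 (2.38%) and 61 (2.03%), and the range of both 26 and 28 cells. No difference between libraries was detectable in any of the 4 shares at this depth. With cells thinned to 4000 UMIs, the log2 ratio for any range was 0.38 (0.15 to 0.61), an interval above 0. Among cells with under 2 UMIs of other types' markers it was -0.14 (-0.62 to 0.34), and that of the G2/M range -0.80 (-1.93 to 0.25) in place of 0.23. Without thinning, 30.2% and 32.1% of cells passed the same limits, so the shares depend on the depth at which cells are compared. Many cells lay next to the limit: 178 cells in each library had 2 UMIs of the S-phase list, and 48 and 56 had 3. Before thinning, S-range cells had medians of 10250 and 11731 UMIs and G2/M-range cells 12068 and 13645, against 7144 and 8235 for cells in no range.

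Across the ranges the 2 lists parted without exception in the thinning reported. For each member, cells were placed again with that member's own UMIs left out, and its CPM in G2/M-range cells was divided by its CPM in S-range cells. All 20 S-phase genes were lower in the G2/M range, and all 18 G2/M genes were higher there, in the libraries pooled and in each one. Not every value in a single library was clear of 0. The intervals of Fen1, Ccne1, Top2a and Cdk1 labelled KO, of Rrm2 labelled WT, and of Aurkb in either library included it. Among 9120 genes with at least 50 UMIs in these cells, 43.5% were lower and 56.5% higher. A shift of at least 2-fold towards the S range was seen for 12 of the 18 S-phase genes with enough UMIs, against 3.17% of all genes. Towards the G2/M range it was seen for 14 of 17 G2/M genes, against 6.34%. Since the lists were assembled as genes of these phases and the other list members place the cells, the split describes how the lists hold together in this tissue.

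**Figure D1:**
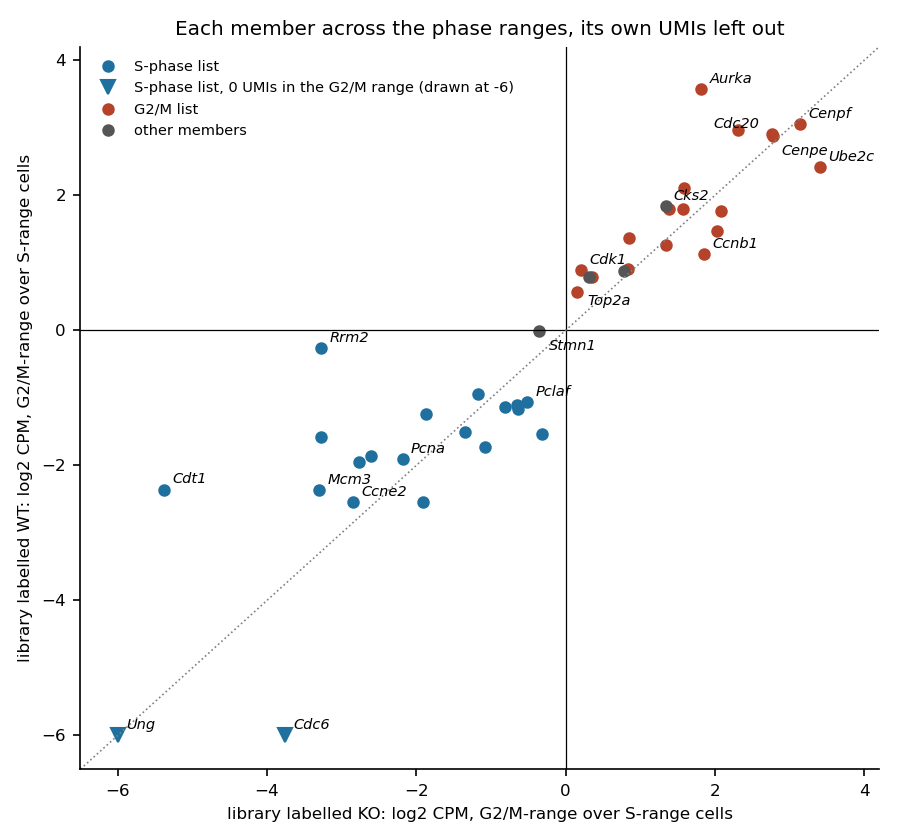
Each point is 1 member: the log2 ratio of its CPM in G2/M-range over S-range cells in the library labelled KO (horizontal axis) and labelled WT (vertical axis), with the dotted line marking equal values. All 20 S-phase genes lie below 0 on both axes and all 18 G2/M genes above 0, and Ung, which had 0 UMIs in G2/M-range cells, and Cdc6, which had 0 there in the library labelled WT, are drawn as triangles at -6 on the axes concerned.

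The licensing genes Cdc6 and Cdt1 lay furthest to the S side, together with Ung. Cdt1, which loads the helicase, was at 57.6 CPM in S-range and 1.38 CPM in G2/M-range cells labelled KO, and at 17.3 and 3.36 CPM labelled WT, a pooled log2 ratio of -3.90 (interval -5.81 to -2.49). Cdc6, its partner, had 38 UMIs in S-range cells and 1 UMI in G2/M-range cells over both libraries (log2 ratio -4.81, -10.15 to -2.24). Ung, the glycosylase that removes uracil from DNA, had 37 UMIs in S-range cells and 0 in G2/M-range cells, at least 9.13-fold lower against a floor of 3 UMIs over both libraries. The cyclin Ccne2, which drives entry into S phase, had a log2 ratio of -2.66 (-3.43 to -1.97), and its paralog Ccne1 had -0.95 (-1.88 to -0.09). These rest on few molecules, and the intervals of Cdt1, Cdc6 and Ung overlap.

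The 6 helicase subunits Mcm2 to Mcm7 all lay on the S side, from a log2 ratio of -2.70 (Mcm3) to -1.49 (Mcm7). Mcm3 stood at 54.7 CPM in S-range, 80.8 in S-and-G2/M-range and 5.54 in G2/M-range cells labelled KO, and at 57.9, 70.0 and 11.2 CPM labelled WT. Pcna, the sliding clamp of the polymerases, was at 213 CPM in S-range and 46.8 CPM in G2/M-range cells labelled KO, and at 197 and 52.6 CPM labelled WT. In cells outside every range it was at 52.2 and 58.2 CPM, so that G2/M-range cells were no higher in Pcna than cells in no range.

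The nucleotide synthesis genes Dut, Rrm1, Rrm2 and Tyms lay between -1.07 and -0.91. The S-phase members nearest to 0 were Pclaf (log2 ratio -0.80), a Pcna-binding protein, then Tyms (-0.91), which makes thymidylate, the flap endonuclease Fen1 (-0.93) and Ccne1. Pclaf reached 646 CPM in S-and-G2/M-range cells labelled KO and 511 CPM labelled WT, above its S-range levels of 246 and 276 CPM. In G2/M-range cells it was at 172 and 132 CPM, but at 115 and 87.4 CPM when its own UMIs were counted in placing cells. Its S-range levels were then 265 and 270 CPM. Rrm2, the regulated subunit of ribonucleotide reductase, differed between libraries: in G2/M-range cells it was at 6.92 CPM labelled KO and 47.0 CPM labelled WT, while in S-range cells it was at 66.9 and 56.3 CPM. With cells thinned to 4000 UMIs instead, the pooled Rrm2 ratio lay on the G2/M side, at 0.65 (0.09 to 1.21), as did that of Pclaf, at 0.30 (0.04 to 0.55). Tyms (0.06) and Rrm1 (0.23) were then also above 0, with intervals that include it, so the place of these 4 genes was not stable.

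On the G2/M side, Cenpf and Cenpe stood furthest out. Cenpf, a kinetochore protein, was at 26.3 CPM in S-range and 231 CPM in G2/M-range cells labelled KO, and at 19.2 and 160 CPM labelled WT (log2 ratio 3.07, 2.63 to 3.54). Cenpe, the kinetochore motor, had a log2 ratio of 2.83 (2.21 to 3.50). Cdc20, which activates the anaphase-promoting complex, was at 20.6 CPM in S-range and 140 CPM in G2/M-range cells labelled KO, and at 14.9 and 112 CPM labelled WT (2.81, 2.31 to 3.34). Ube2c, the ubiquitin-conjugating enzyme of that complex, gave the same pooled log2 ratio of 2.81 (2.44 to 3.19). The mitotic kinases Aurka (2.65) and Plk1 (2.63) came next.

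Top2a (log2 ratio 0.37, interval 0.17 to 0.58), the topoisomerase that untangles DNA, and Cdk1 (0.57, 0.30 to 0.84), the mitotic kinase, were spread more evenly over S and G2/M ranges than most G2/M genes by this placement. Top2a was at 203, 568 and 225 CPM in S-range, S-and-G2/M-range and G2/M-range cells labelled KO, and at 174, 393 and 257 CPM labelled WT. Cdk1 was at 112, 233 and 130 CPM labelled KO and at 86.7, 251 and 161 CPM labelled WT. Leaving out a member's own UMIs moves cells between ranges: for Top2a 95 cells labelled KO were S-range cells, in place of 88. With its own UMIs counted, Top2a was at 155 CPM in S-range and 252 CPM in G2/M-range cells labelled KO, and at 116 and 261 CPM labelled WT. Cdk1 was then at 100 and 132 CPM labelled KO and at 85.4 and 161 CPM labelled WT. Both peaked in cells of the range of both lists. That peak was not particular to them: Mcm3, Rrm2, Tyms, Ccna2, Mki67 and Birc5, among others, also peaked there in either library. Aurkb (0.52, -0.41 to 1.45), the kinase of the chromosomal passenger complex, did so as well but rested on 43 UMIs in S-range and G2/M-range cells. Kif11 (0.87), the spindle motor, was the fourth nearest to 0.

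**Figure D2:**
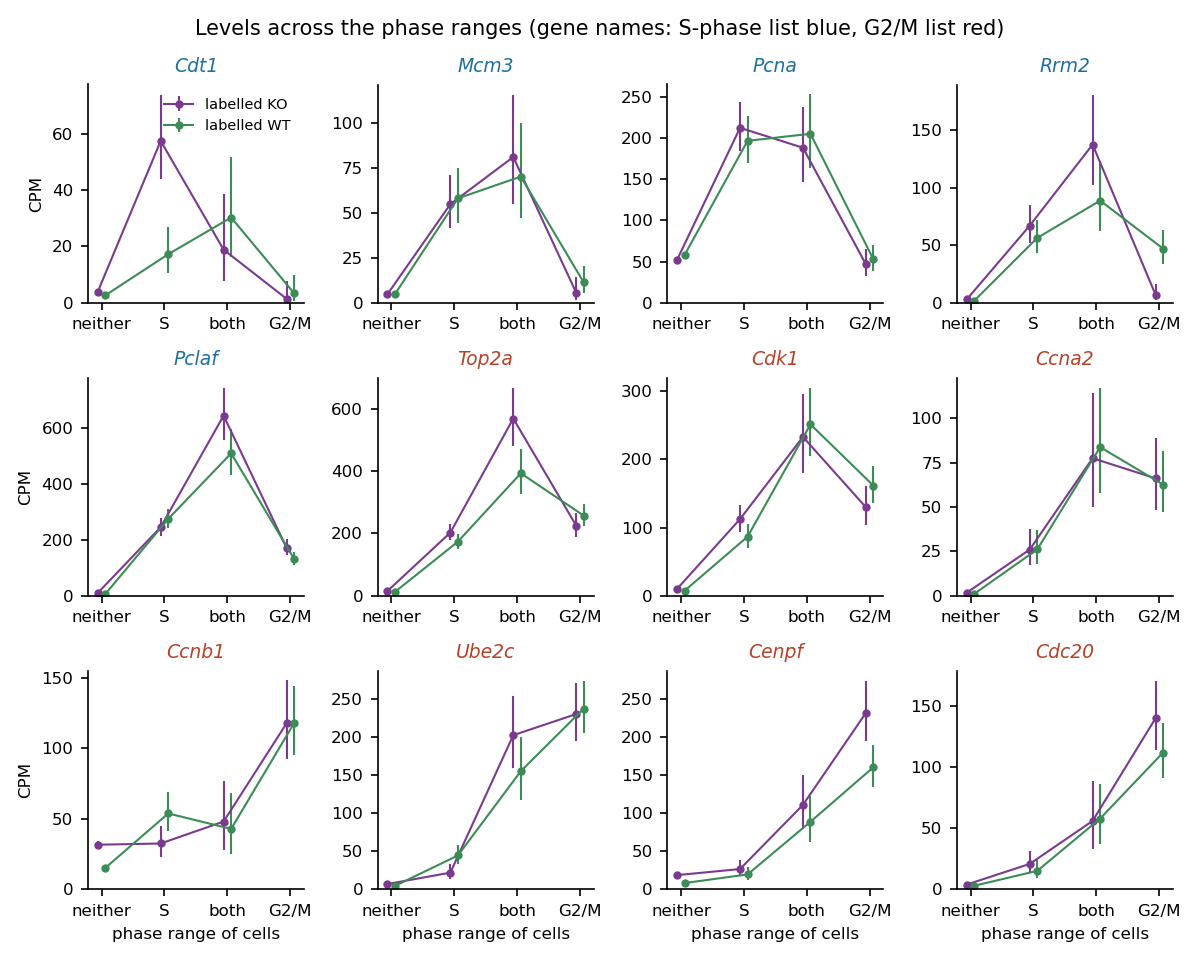
Levels in CPM (vertical axes, starting at 0) of 12 members in cells of no range, of the S range, of both ranges and of the G2/M range, with the member's own UMIs left out when cells were placed. Bars are exact Poisson intervals, purple is labelled KO and green labelled WT. Cdt1 and Pcna were low again in the G2/M range, while Cdc20 and Cenpf were highest there. Mcm3, Rrm2, Pclaf, Top2a, Cdk1 and Ccna2 peaked in the range of both in either library.

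Of the other members, Cks2 lay on the G2/M side (log2 ratio 1.61), as did the chromatin protein Hmgb2 (0.84) and Cks1b (0.55), while Stmn1, which destabilizes microtubules, had -0.20 (-0.34 to -0.06). Cks1b and Cks2 encode small subunits that bind cyclin-dependent kinases. Hmgb2 was by far the most abundant member, at 287 and 200 CPM even in cells of no range and at 3075 and 2976 CPM in S-and-G2/M-range cells.

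Members differed in how much of their RNA came from phase-range cells. Cells in any range made up about the same small share whichever gene was left out, 6.85% and 5.76% of cells for Ccna2, and held 9.82% and 8.35% of all UMIs. They held 73.7% and 79.2% of the UMIs of Ccna2, the cyclin of S phase and G2, 73.4% and 76.0% of Pclaf, and 69.4% and 75.5% of Rrm2. For Pcna the shares were only 23.1% and 16.9%, and for Ccnb1, the mitotic cyclin, 16.9% and 30.2%. The Ccnb1 shares depend on leaving out its own UMIs when cells were placed. Then 609 and 400 of its UMIs lay in cells of no range, against 149 and 90 with its own UMIs counted. Pcna was detected at 2000 UMIs in 9.91% and 11.0% of all cells and in 8.91% and 13.6% of cells in the tuft or keratinocyte marker ranges described further on, where few cells lay in a phase range. Ccna2 was detected in 0.806% and 0.732% of all cells and in 0 of the 404 and 750 tuft- or keratinocyte-range cells, whose medians of 6699 and 7136 UMIs compare with 7323 and 8383 for all cells.

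Between libraries, most members were higher in the library labelled KO. The S-phase list summed to 375 CPM (interval 367 to 383) labelled KO and 325 CPM (318 to 331) labelled WT, a log2 ratio of 0.21 (0.16 to 0.25). The G2/M list summed to 258 CPM (251 to 265) and 199 CPM (194 to 204), a log2 ratio of 0.37 (0.32 to 0.43), and the 4 other members to 702 and 527 CPM (0.41). Of the 42 members, 38 were higher labelled KO and 4 lower (Pcna, Ccne1, Aurka and Bub1), where 48.7% of the 18880 genes with at least 50 UMIs were higher. The median log2 ratio was 0.28 over the members and -0.01 over all those genes. The counting interval lay above 0 for 27 members, against 19.8% of all genes, and below 0 for Bub1 alone, against 22.7%. Those intervals take each UMI as independent, although UMIs of a member can pile up in few cells. Shares of cells holding the member at 2000 UMIs rest on fewer counts. Their log2 ratio had an interval above 0 only for Mcm7, Cenpe, Cks1b, Hmgb2 and Stmn1, and all other intervals included 0. Some members higher by CPM were lower by share, among them Mki67 (-0.32), Ube2c (-0.26), Tpx2 (-0.12) and Kif11 (-0.48). At least 1.5-fold higher were 4 members, Cdt1, Ccnb1, Cenpf and Stmn1, against 5.73% of all genes, and none was 1.5-fold lower, against 7.12%. Just outside that limit stood Aurkb, at a log2 ratio of 0.58.

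The G2/M list was higher labelled KO in the cells that also held UMIs of other cell types' markers, and lower in the rest. In Epcam-positive cells with at least 2 such UMIs, 1140 labelled KO and 1402 labelled WT, the G2/M list was at 338 and 216 CPM (log2 ratio 0.65, interval 0.58 to 0.71) and the S-phase list at 385 and 314 CPM (0.29, 0.23 to 0.35). There 38 of 42 members were higher labelled KO, against 51.0% of all genes. In the 1561 and 1791 Epcam-positive cells with under 2 such UMIs the G2/M list was lower labelled KO, at 147 against 174 CPM (-0.24, -0.35 to -0.14), and the S-phase list was at 361 and 340 CPM (0.09, 0.02 to 0.15). Of the members 21 were higher and 21 lower there, against 45.2% of all genes higher, and of the 18 G2/M genes 5 were higher and 13 lower. The cells with the markers were deeper, with medians of 9861 and 11302 UMIs against 4683 and 5361. The part of depth, of doublets and of free RNA in this split was not tested.

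**Figure D3:**
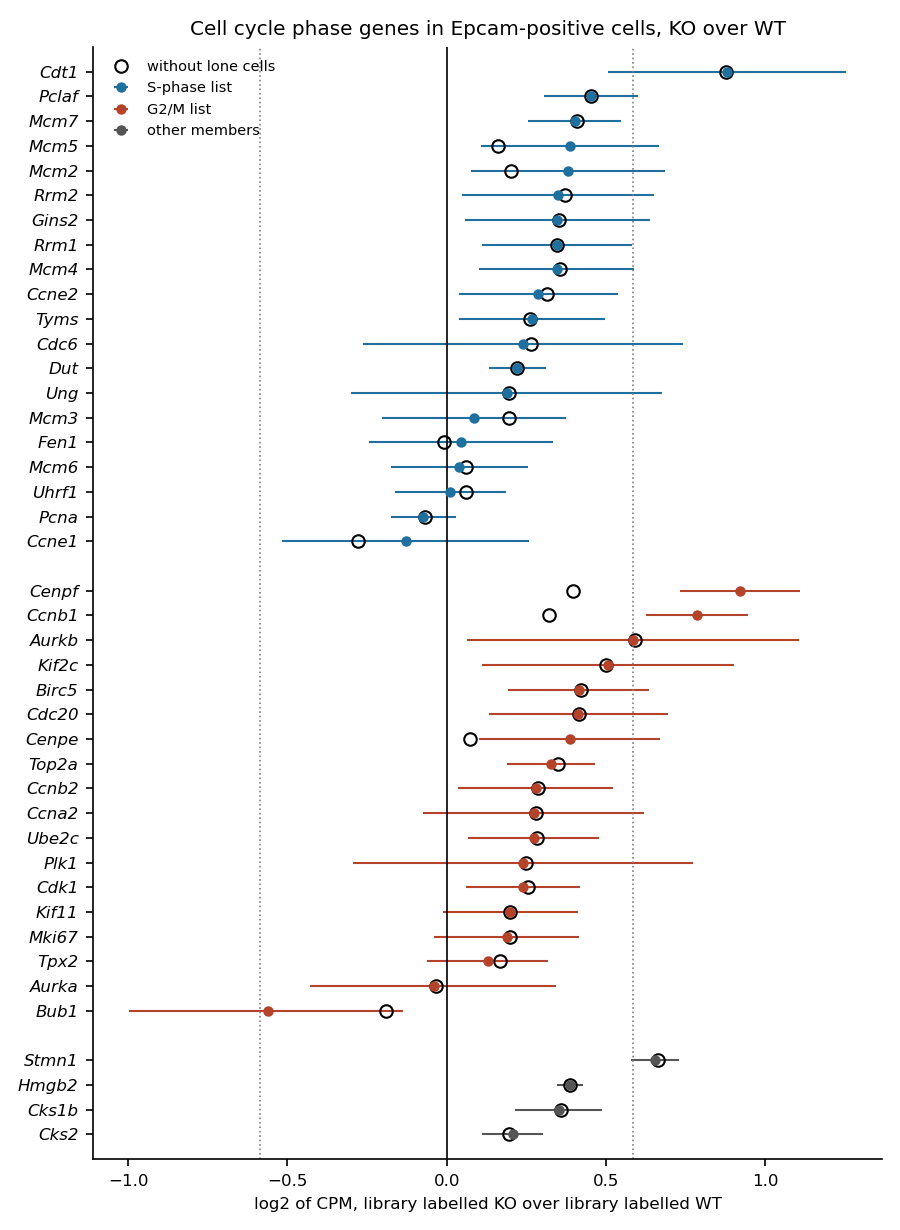
Log2 ratio of CPM in Epcam-positive cells, labelled KO over labelled WT, for each of the 42 members (points, with exact conditional binomial intervals) and the same after leaving out lone cells, which hold many UMIs of 1 member and few of the rest of its list (open circles). Dotted lines mark 1.5-fold: 38 points lie above 0, and the open circles of Ccnb1 and Cenpf fall back to 0.32 and 0.40.

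Among S-phase genes Cdt1 (chr8:122568015-122573554, + strand) was the highest, at 6.67 CPM (5.63 to 7.85) labelled KO and 3.63 CPM (2.97 to 4.39) labelled WT, a log2 ratio of 0.88 (0.51 to 1.25). It rested on 145 and 106 UMIs, of which 24 came from 1 cell labelled KO. Pclaf came next with 35.1 and 25.7 CPM (0.45, 0.31 to 0.60), then the helicase subunit Mcm7 with 35.6 and 27.0 CPM (0.40, 0.26 to 0.55). The lowest were Ccne1 with 4.42 and 4.83 CPM (-0.13, -0.52 to 0.26), Pcna with 61.1 and 64.3 CPM (-0.07, -0.18 to 0.03) and Uhrf1, which recognizes hemimethylated DNA at forks, with 21.6 and 21.5 CPM (0.01, -0.16 to 0.19). The helicase subunits ran from 0.04 (Mcm6) to Mcm7. The intervals of Mcm3 and Mcm6 included 0, and those of Mcm2, Mcm4, Mcm5 and Mcm7 did not. Leaving out 1 cell labelled KO each, described further on, brought 0 into the intervals of Mcm2 (0.20, -0.12 to 0.52) and Mcm5 (0.16, -0.13 to 0.46). Both subunits of ribonucleotide reductase, Rrm1 and Rrm2, had a log2 ratio of 0.35.

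Among G2/M genes the highest were Cenpf (chr1:189640606-189688086, - strand), with 26.1 CPM (23.9 to 28.3) and 13.8 CPM (12.4 to 15.2), a log2 ratio of 0.92 (0.73 to 1.11), and Ccnb1 (chr13:100778650-100786570, - strand), with 33.8 CPM (31.4 to 36.3) and 19.6 CPM (18 to 21.3), a log2 ratio of 0.78 (0.63 to 0.94). Neither was 1.5-fold higher in cells with under 2 UMIs of other types' markers: there Cenpf had a log2 ratio of 0.18 (-0.23 to 0.59), against 1.15 in cells with at least 2, and Ccnb1 had -0.81 (-1.13 to -0.49), against 1.5. Lone cells, described further on, carried much of this. They held 95 of 121 Ccnb1 UMIs labelled KO and 200 of 273 labelled WT in cells with under 2 such UMIs. In the rest they held 431 of 613 and 148 of 300. Without lone cells Cenpf had 0.17 in cells with under 2 and 0.51 in the rest. Ccnb1 then had -1.13 (-1.83 to -0.46) and 0.74 (0.43 to 1.06). Over all Epcam-positive cells Aurkb had 3.13 and 2.09 CPM from 68 and 61 UMIs. The lowest were Bub1, the spindle checkpoint kinase, with 3.22 and 4.76 CPM (-0.56, -1.0 to -0.14), Aurka with 4.56 and 4.69 CPM (-0.04, -0.43 to 0.34) and Tpx2, the activator of Aurka, with 19.2 and 17.6 CPM (0.13, -0.06 to 0.32). Mki67, the usual marker of proliferation, was at 13.6 and 11.9 CPM (0.19, -0.04 to 0.42). The cyclins Ccna2 (0.27) and Ccnb2 (0.28) had ratios near the median of the members, well below that of Ccnb1.

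Of the other members, Stmn1 (chr4:134468320-134473843, + strand) was at 141 CPM (136 to 146) and 89.4 CPM (86.0 to 92.8), a log2 ratio of 0.66 (0.58 to 0.73). Hmgb2 was at 446 and 341 CPM (0.39), Cks1b at 40.04 and 31.4 CPM (0.35) and Cks2 at 75.0 and 65.0 CPM (0.21). The differences of Hmgb2 and Stmn1 were larger in cells of no range than in phase-range cells. There Hmgb2 was at 287 and 200 CPM (log2 ratio 0.52, 0.47 to 0.57) and Stmn1 at 89.5 and 55.2 CPM (0.70, 0.60 to 0.80). In phase-range cells Hmgb2 was at 1916 and 1901 CPM (0.01, -0.05 to 0.07) and Stmn1 at 611 and 467 CPM (0.39, 0.27 to 0.51). Stmn1 had a log2 ratio of 0.64 in cells with at least 2 UMIs of other types' markers and of 0.69 in cells with fewer. For Hmgb2 the ratio was 0.53 (0.48 to 0.58) in cells with at least 2 such UMIs and 0.14 (0.08 to 0.21) in the rest.

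Most Ccnb1 UMIs sat in a few cells that held almost none of the rest of the G2/M list. Of 14 cells labelled KO with at least 10 Ccnb1 UMIs, 12 had at most 5 UMIs of the other 17 G2/M genes together, and of 7 such cells labelled WT, 6 did. Cells of this kind, with at least 10 UMIs of 1 member and at most 5 of the rest of its list, are called lone cells here; the limits were chosen after the values had been seen. The highest labelled KO had 99 Ccnb1 UMIs and 2 of the rest, out of 7523 UMIs in the cell, and the highest labelled WT had 88 and 1. These cells held 71.7% of all Ccnb1 UMIs labelled KO and 60.7% labelled WT. At 2000 UMIs Ccnb1 was detected in 1.13% of cells in either library (log2 ratio of the shares 0.00), while its CPM differed by 0.78. Without lone cells Ccnb1 was at 9.73 and 7.79 CPM, a log2 ratio of 0.32 (0.04 to 0.60).

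**Figure D4:**
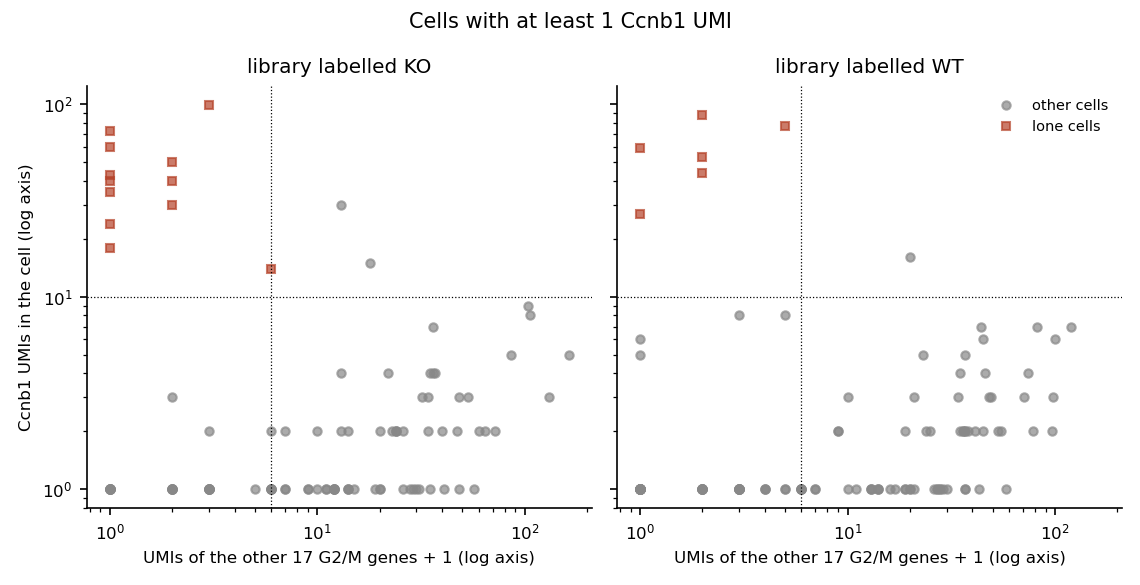
Each point is 1 Epcam-positive cell with at least 1 Ccnb1 UMI: its UMIs of the other 17 G2/M genes plus 1 (horizontal log axis) and its Ccnb1 UMIs (vertical log axis), for the library labelled KO (left) and labelled WT (right). Red squares are the 12 and 6 lone cells, which lie at the top left, apart from the band of cells where Ccnb1 goes with the rest of the list.

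Lone cells were also found for other members, 27 cells labelled KO and 21 labelled WT in all, over 10 members in each library. A cell labelled KO held 120 Cenpf UMIs and 0 of the other G2/M genes, and 4 such cells gave 33.7% of the Cenpf UMIs labelled KO, against 1 cell and 5.22% labelled WT. Without lone cells the log2 ratio of Cenpf was 0.40 (0.18 to 0.61). Cenpe had 1 lone cell with 29 UMIs labelled KO, Mcm5 1 with 32 and Mcm2 1 with 23, and without lone cells their log2 ratios were 0.07, 0.16 and 0.20 in place of 0.39, 0.39 and 0.38. Bub1 had 3 lone cells labelled WT with 45 of its 139 UMIs and 1 labelled KO, and its ratio without them was -0.19 (-0.69 to 0.30). Without lone cells the G2/M list had a log2 ratio of 0.28 (0.22 to 0.34) and the S-phase list 0.20 (0.16 to 0.25), and 41 of 42 members kept their sign, all but Fen1.

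Lone cells mostly expressed Aire. An Aire UMI was present in 21 of 27 lone cells labelled KO (77.8%) and 19 of 21 labelled WT (90.5%), against 36.4% and 45.1% of all Epcam-positive cells. Lone cells were deeper, with medians of 12025 and 13420 UMIs. At 2000 UMIs per cell, 14 of 27 (51.9%) and 13 of 21 (61.9%) still held one, against 25.6% and 30.7% of all cells. Thinned in this way, 19 and 11 lone cells were counted as phase-range cells, 15 and 8 of them as G2/M-range cells. The rule for lone cells looks at the member's own list only. Before thinning, a Top2a lone cell labelled KO held 39 S-phase UMIs and a Tpx2 lone cell labelled WT held 66. Every other lone cell held at most 15 UMIs of the list that its member is not in. In the G2/M range, 13 of 59 cells labelled KO and 11 of 61 labelled WT got there by UMIs of a single gene, against 6 of 88 and 8 of 86 in the S range. With at least 3 different genes required instead, the log2 ratio of the G2/M-range shares was -0.02 in place of 0.23.

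Phase-range cells were more frequent among cells with Aire. At 2000 UMIs, 72 of 636 cells with an Aire UMI labelled KO lay in a range (11.3%, interval 8.96 to 14.0%) against 101 of 1846 without (5.47%), a log2 ratio of 1.05 (0.59 to 1.5). Labelled WT, the counts were 78 of 921 (8.47%, 6.75 to 10.5%) against 97 of 2083 (4.66%), a log2 ratio of 0.86 (0.41 to 1.31). Without lone cells these ratios were 1.03 and 0.80, and with another random thinning of the cells 1.07 and 1.08. With cells thinned to 1000 UMIs, or with at least 5 UMIs required, the ratio labelled KO was 0.37 (-0.47 to 1.14) or 0.51 (-0.24 to 1.23), with intervals that include 0. Cells with an Aire UMI were deeper before thinning, with medians of 10451 and 11316 UMIs.

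Cells with at least 3 UMIs of tuft cell markers, of which Dclk1 gave the most, were seldom in a phase range, at 4 of 294 (1.36%, 0.372 to 3.45%) labelled KO and 11 of 560 (1.96%, 0.985 to 3.49%) labelled WT. Cells with at least 5 UMIs of keratinocyte markers, led by Krtdap, gave 3 of 116 (2.59%) and 4 of 210 (1.90%), and all 7 were S-range cells. In cells with at least 10 Ccl21a UMIs, the chemokine of a large medullary population, 28 of 509 (5.50%) and 11 of 356 (3.09%) lay in a range. Of these Ccl21a-high cells in a range, 20 labelled KO and 10 labelled WT were S-range cells, and 6 and 0 G2/M-range cells. Their G2/M list was at 142 and 51.4 CPM, against 376 and 330 CPM for their S-phase list. The markers fixed for microfold, gut- and liver-like and cortical cells were carried mainly by Ccl20, Saa3 and Tbata, and those for neuroendocrine cells by Syt1 with 69.2% and 72.8% of the UMIs, so these ranges are named by those genes. The Syt1-led range took in 32.2% and 39.2% of cells, and 7.51% and 6.12% of it lay in a phase range. The ranges overlapped, and 48.3% and 51.1% of tuft-range cells were also in another.

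**Figure D5:**
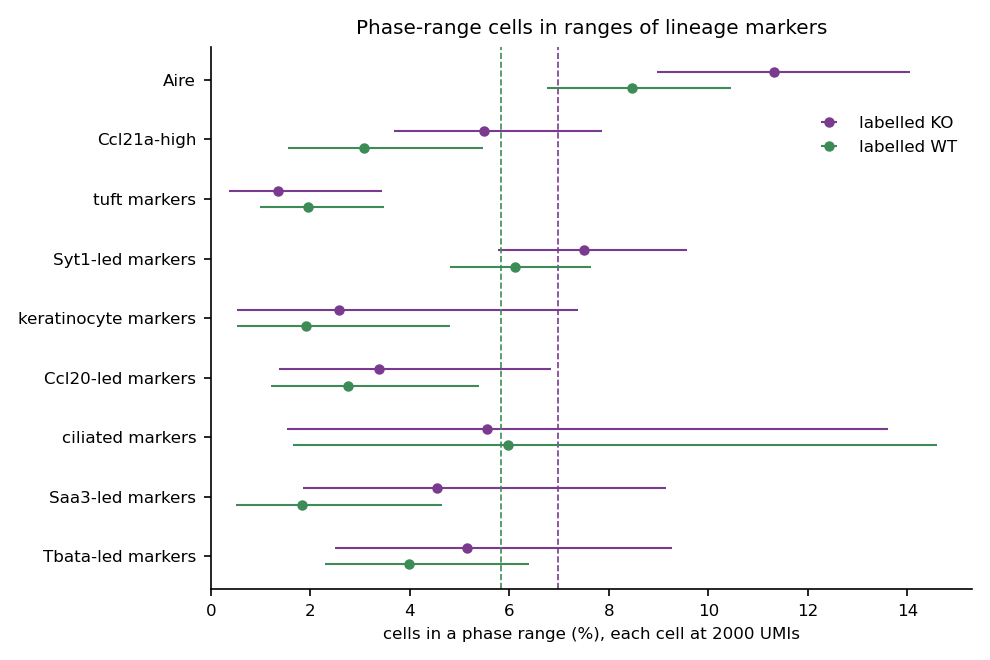
Share of cells in any phase range (horizontal axis, percent, starting at 0) within ranges of lineage markers, each cell thinned to 2000 UMIs, with exact Clopper-Pearson intervals; purple is labelled KO, green labelled WT, and dashed lines are the shares over all cells, 6.97% and 5.83%. Cells with Aire lie highest in either library, at 11.3% and 8.47%, and cells with tuft markers lie at 1.36% and 1.96%, while the intervals of the ciliated range are the widest.

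Genes of epithelial stages differed between phase-range and other cells, and between the S and G2/M ranges. In phase-range cells, Ly6a, the surface protein Sca-1, was at 294 against 469 CPM labelled KO and 92.8 against 325 CPM labelled WT. Plet1, an early epithelial marker, was at 3.71 against 34.1 CPM and 11.9 against 36.6 CPM. Trp63, the basal epithelial regulator, was at 101 against 152 CPM and 70.3 against 124 CPM, and Foxp1 at 201 against 402 CPM and 147 against 252 CPM. Aire was at 451 against 373 CPM and 515 against 434 CPM, and Epcam at 697 against 663 CPM and 604 against 583 CPM. Dll4, a Notch ligand, had log2 ratios of -1.19 and -1.05, and Krt8 of -0.55 and -0.43. For the others, the log2 ratios labelled KO and labelled WT were 0.07 and 0.05 for Epcam, for Fezf2 0.17 and 0.05, for Cd80 -0.40 and -0.08, and for H2-Aa 0.10 and -0.11. They were -0.10 and -0.15 for Tnfrsf11a, 0.12 and 0.27 for Foxn1, -0.05 and -0.27 for Krt14, and -0.17 and -0.18 for Pdpn. The cortical genes Prss16 (-1.02 and -0.13) and Psmb11 (-0.92 and -0.66) rested on few UMIs in phase-range cells, as did Dll4 and Plet1.

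Ccl21a and Krt5 were lower in G2/M-range than in S-range cells in either library. Ccl21a has near-identical gene copies, and the 2 rows of the deposited table with this symbol were summed, so its level is uncertain. Ccl21a was at 2759 CPM in S-range and 1173 CPM in G2/M-range cells labelled KO, and at 1099 and 394 CPM labelled WT, log2 ratios of -1.23 (-1.35 to -1.12) and -1.48 (-1.65 to -1.31). The basal keratin Krt5 was at 461 and 195 CPM labelled KO and at 453 and 137 CPM labelled WT (-1.24 and -1.73). Other basal genes did not share this in both libraries. Krt14 had -0.91 (-1.18 to -0.64) labelled KO and -0.16 (-0.42 to 0.11) labelled WT. Trp63 had -0.31 (-0.76 to 0.13) and 0.05 (-0.46 to 0.56). Aire was at 436 and 472 CPM labelled KO (0.12, -0.09 to 0.32) and at 432 and 631 CPM labelled WT (0.54, 0.37 to 0.72). Phase ranges had been set without these genes.

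Markers of other cell types were present in phase-range cells as well, at levels that differed between the ranges. In G2/M-range cells the myeloid and B cell markers were at 547 CPM labelled KO and 345 CPM labelled WT, against 373 and 301 CPM in cells of no range, and the endothelial markers at 241 and 63.9 CPM, against 128 and 82.7 CPM. In S-range cells both lists were lower than in cells of no range, the myeloid and B cell markers at 232 and 140 CPM and the endothelial markers at 89.2 and 56.95 CPM. The same held in the range of both, with 261 and 100.3 CPM and with 102 and 41.98 CPM. Fibroblast markers labelled KO were at 103 CPM in S-range and 101 CPM in G2/M-range cells, against 70.0 CPM in cells of no range. Labelled WT they were at 27.6 and 22.4 CPM against 62.2 CPM. Red cell markers in G2/M-range cells were at 9.69 CPM labelled KO and 70.6 CPM labelled WT, against 34.3 and 37.1 CPM in cells of no range. At least 2 endothelial UMIs were held by 22 of 59 G2/M-range cells labelled KO and 11 of 61 labelled WT. All 7 myeloid and B cell markers were detected there labelled KO and 6 of 7 labelled WT, and all 5 endothelial markers in either library. Lyz2 alone gave 357 of the 395 myeloid and B cell UMIs in G2/M-range cells labelled KO and 293 of 308 labelled WT. Thymocyte markers gave 20 and 25 UMIs in all G2/M-range cells, with Cd8a and Rag1 at 0 labelled KO and Cd3e, Cd8a, Cd8b1 and Dntt at 0 labelled WT. That was 27.7 and 28.0 CPM, against 31.3 and 49.6 CPM in cells of no range. In S-range cells they were at 17.8 and 32.9 CPM. In the range of both they were at 51.2 CPM labelled KO, from 19 UMIs, and at 7.0 CPM labelled WT, from 3 UMIs. In Epcam-negative cells of the same libraries, 883 and 844 cells, the S-phase list was at 233 and 216 CPM and the G2/M list at 103 and 76.0 CPM, below the Epcam-positive cells. The part of other cell types in the members' levels was not tested beyond the split by marker UMIs given above.

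Other genes of the cycle were read from lists assembled from textbook knowledge. Of 52 further S-phase genes, 39 were higher and 13 lower labelled KO, where 48.7% of all genes were higher. At least 1.5-fold higher were 6, against 5.73% of all genes, and none was 1.5-fold lower, against 7.12%. Among the higher were Dscc1 (log2 ratio 1.07) and the primase subunit Prim1 (0.82), and the lowest were the mismatch repair gene Msh6 (-0.47), Clspn (-0.31) and Mcm10 (-0.26). Of 56 further G2/M genes, 40 were higher and 16 lower, and 7 were at least 1.5-fold higher and 3 lower, the latter a share near that of all genes. The highest were the centromere gene Cenph at 7.36 and 3.22 CPM (1.19, 0.82 to 1.58), Cdca3 (0.81) and Pbk (0.79), and the lowest the condensin subunit Ncapg at 5.98 and 13.0 CPM (-1.12, -1.42 to -0.83), Kif4 (-0.65) and Ccnf (-0.61). Across the ranges, 21 of 40 further S-phase genes with enough UMIs lay at least 2-fold on the S side, against 3.17% of all genes, and 1, Casp8ap2, on the G2/M side. Of 47 further G2/M genes 32 lay 2-fold on the G2/M side, against 6.34%, and 0 on the S side.

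No gene of the lists of G1 genes and of brakes of the cycle reached 1.5-fold between libraries, where 5.73% of all genes were that much higher and 7.12% lower. Of 17 G1 and start genes, 12 were higher and 5 lower labelled KO, against 48.7% of all genes higher. The highest were Mycn (log2 ratio 0.58, from 39 and 35 UMIs), E2f1 (0.56) and Cdk4, the kinase of cyclin D, at 83.1 and 59.2 CPM (0.49, 0.39 to 0.58), and the lowest Cdc25a (-0.19), Myc (-0.18) and Lin54 (-0.15). Of 16 brakes, 8 were higher and 8 lower. Cdkn1c, an inhibitor of cyclin-dependent kinases, was at 190 and 137 CPM (0.47, 0.41 to 0.53), followed by Trp53 (0.20) and Cdkn2d (0.16). The lowest were Cdkn2c at 20.4 and 28.2 CPM (-0.46, -0.63 to -0.29), Wee1 (-0.23) and Cdkn1a (-0.20).

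Over single cells the members correlated weakly, as is usual for counts this sparse. At 2000 UMIs the median correlation of pairs was 0.04 and 0.05 within the S-phase list and 0.09 and 0.08 within the G2/M list, on the scale of log2(UMIs + 1), and 0.01 between the lists in either library. The tightest pair was Hmgb2 with Stmn1, at r of 0.39 over 2482 cells labelled KO and 0.36 over 3004 labelled WT. All cells were at the same depth here, and these values are descriptions that were not tested.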

How the data were processed

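Thymic epithelial cells were profiled by single-cell RNA sequencing in 1 library labelled KO and 1 labelled WT. Raw counts of UMIs per gene and barcode were deposited, which per the file headers came from Cell Ranger 7.0.1. Seurat and the build mm10 are also listed in the submitters' processing notes, without roles. Gene positions came from GENCODE M21 on the same build, where 8 members (Ccna2, Ccne2, Cdc20, Fen1, Gins2, Mcm7, Pclaf and Ube2c) overlap a gene on the other strand and 0 on their own. Whether introns were counted is not given in the sources used here.

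Counts were summed over Epcam-positive cells and divided by their total (CPM). Poisson intervals were put on CPM, conditional binomial intervals on ratios and Clopper-Pearson intervals on shares, with numpy 2.4.6, scipy 1.17.1 and pandas 2.3.3. Only the comparison of levels between libraries was run on simulated data, with known fold changes and independent Poisson counts. Some counts here cluster in single cells, which that simulation does not hold, and the other steps were not simulated. No doublet caller was run; leaving out the 3% of cells with the most UMIs, or cells with at least 2 UMIs of other types' markers, stood in for one.

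All members are accounted for. Named were those past 1.5-fold, the 3 highest and 3 lowest of each list (members with at least 50 UMIs), the 4 furthest to each side of the phase ranges, the 3 highest and lowest of other cell cycle lists, and all stage genes. Lone cells, and what is given for them, were chosen after their values were seen. Members and lists were chosen with earlier results of these data known. Values of some single genes in the marker and further cycle lists are not reported here. Alternatives that only leave out cells kept the same thinned cells, and those that add cells thinned all of them anew.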

Additional observations from a re-analysis of the deposited data

How the results depend on the processing

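Most members stayed on the side of their own list under the alternatives run. Of 488 values of single members across the ranges, 145 moved outside the reported interval. At 4000 UMIs 16 of 20 S-phase genes stayed: Tyms, Rrm1, Pclaf and Rrm2 (0.65) did not, nor did Tyms without cells holding 2 UMIs of other cell types' markers. Aurkb left the G2/M side at 1000 UMIs, with another thinning and with Epcam-negative cells included. Between libraries, leaving out cells with 2 UMIs of other cell types' markers gave -0.24 for the G2/M list, -0.33 for the G2/M to S balance (0.17 as reported) and -0.81 for Ccnb1, all turned, and 0.086 for the S-phase list. It left 3 members 1.5-fold lower, log2 ratios of -0.14 for the share in any range and -0.80 for the G2/M-range share, and 1.38 for Aire labelled WT, with 25 of 42 members on the same side of 0.

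Leaving out the 3% of cells with the most UMIs gave 0.45 for the G2/M list, 0.26 for the balance, 7 members 1.5-fold higher and 1 lower. Weighting cells equally at 2000 UMIs gave 0.16 for the S-phase list and 7 members 1.5-fold higher, with 34 of 42 members on the same side of 0 as reported. At 2-fold 0 members were higher. With at least 1000 genes and at most 5% mitochondrial UMIs 1 member was lower. The share of all genes past these limits was not recorded for the alternatives, so their counts of members stand without a background. For Aire labelled KO the ratio was 0.37 at 1000 UMIs and 0.51 with 5 UMIs required. Without lone cells, an alternative chosen after seeing the data, the G2/M list gave 0.28 and the balance 0.077.

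The cause of these shifts was not tested. No paired analysis was possible because each group has 1 library. Members such as Ung, Cdc6, Plk1, Aurkb and Bub1 have under 150 UMIs in each library, which limits what can be read from them.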
